A study of Mus musculus with 6 samples.

Results

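The genes described here encode the transcriptional end of the Hippo pathway: the coactivators YAP (Yap1) and TAZ (Wwtr1), the DNA-binding factors Tead1, Tead2, Tead3 and Tead4, and Nuak2, Ankrd1, Amotl2 and Lats2, which are known as YAP and TAZ targets. Array probes were taken where their RefSeq accession belonged to one of these 10 genes, out of 20786 named genes on the array, and 14 of 39318 usable probes matched. All 14 probes lay well above background on all 6 arrays, and all 10 genes passed the filter on dim probes. The probes were chosen by accession and not by signal. The genes were nevertheless listed when diet differences on these arrays were already known, that of Nuak2 among them, so their differences are given as a description.

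High-fat replicates 1 to 3 and control replicates 1 to 3 are labelled as mammary glands of female mice that all lack Trp53. The mice ate a high-fat diet (HFD) or a control diet (CD) for 5 weeks from 3 weeks of age, and glands were taken at 8 weeks. Each of the 6 mice had 1 single-colour Agilent array. The labels call the source mammary glands, while their descriptions speak of mammary epithelial cells. Which of them was hybridised is not known, and glands below is the word of the labels. No wild-type mice were measured, so both diets share the Trp53 knockout. Levels are log2 processed signals relative to the 75th percentile of the same array. Differences are high-fat minus control on the log2 scale, with limma's standard error (SE), and n = 3 mice per diet throughout.

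In the Hippo pathway, the kinases MST1 and MST2 (Stk4 and Stk3) and their partners activate LATS1 and LATS2, which phosphorylate YAP and TAZ and keep them out of the nucleus. When the kinases are less active, YAP and TAZ enter the nucleus, bind TEAD factors and switch on genes of growth, matrix and cell shape. In the mammary gland TAZ is known as a factor of basal cells. YAP and TAZ are controlled largely through their phosphorylation and location, which RNA arrays do not measure.

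Diet did not separate the arrays cleanly. The first principal component, with 46.7% of the variance, placed high-fat replicates 1 and 2 at -56.0 and -50.1, high-fat replicate 3 and control replicate 1 at 7.3 and 0.6, and control replicates 2 and 3 at 48.8 and 49.4. The arrays lay on 3 slides. High-fat replicate 1 was on slide 1, high-fat replicates 2 and 3 and control replicate 1 on slide 2, and control replicates 2 and 3 on slide 3. Between 27203 and 29412 probes were well above background per array. The basal keratins Krt5 and Krt14 and the luminal keratins Krt8 and Krt18 were well above background on all 6 arrays, and the adipocyte hormone Adipoq on 5 of 6. Adipoq was dim, with mean levels of -5.95 in high-fat and -6.99 in control glands, against 8.08 and 7.57 for Krt18. The mean level over 8 white adipocyte markers was -4.57 to -4.20 in high-fat and -4.69 to -4.27 in control glands. Of these, Plin1 had means of -6.03 and -6.21 and Lep of -5.66 and -5.83 (high-fat and control). Fabp4 was brighter, at 1.43 and 1.31.

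None of the 10 genes passed an adjusted p of 0.05 over the 23460 genes or unnamed transcripts tested in limma. Over all genes 4 passed, or 0.0171%, all of them lower in high-fat glands. For the 10 genes the adjusted p ranged from 0.117 to 0.903. By unadjusted p, 2 of the 10 were under 0.05 with higher values and 0 with lower ones, beside 5.88% and 7.46% of all genes (13.3% in all). The median difference of the 10 was 0.24, with 7 above 0, beside a median of -0.01 and 49.0% above 0 for all genes tested. It was 0.15 without high-fat replicate 2, and 0.012 with slide as a fixed block, where all genes had 0.03. With that block, here and below, the diets are compared only within slide 2, which held 2 high-fat mice and 1 control mouse. A normexp background scaled to the 75th percentile moved the median of all genes to 0.27. Relative to it the median of the 10 was -0.17, with Nuak2 (0.82), Amotl2 (0.06) and Ankrd1 (0.05) above it and the other 7 genes below. The same background with quantile normalization gave a median of 0.24 for the 10 and -0.0016 for all genes. In a limma fit that weighted the arrays, 5 of the 10 passed (Nuak2, Amotl2, Ankrd1 and Wwtr1 higher, Tead3 lower), beside 23.1% of all genes. An exact permutation test of 3 mice against 3 cannot go below a two-sided p of 0.1, and the number of arrays limits the precision.

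**Figure D1:**
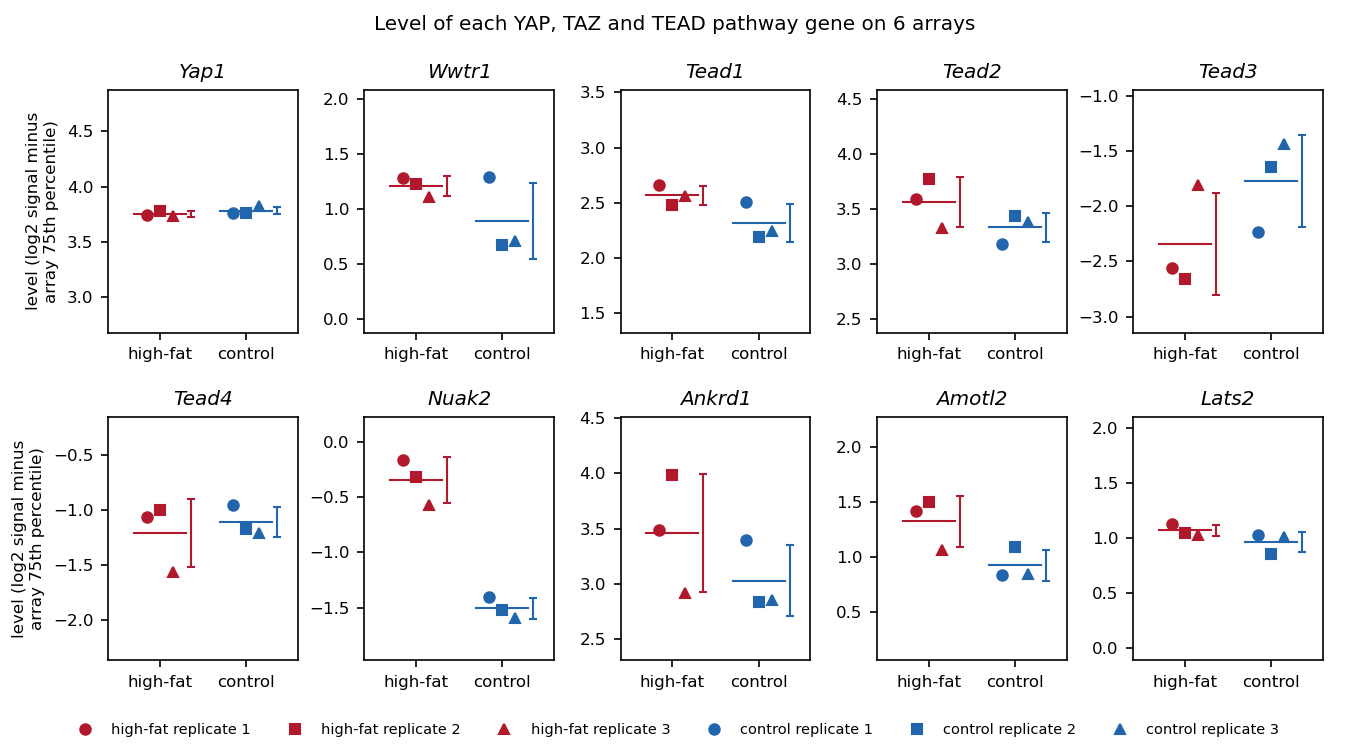
Level of each of the 10 genes on each array (log2 signal relative to the 75th percentile of the array) in high-fat (red, left) and control (blue, right) glands. Lines are means, bars are SD of 3 mice, and every panel spans the same range of log2 units. Nuak2 lies apart between the diets, while Yap1 lies between 3.73 and 3.82 on all 6 arrays.

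The transcripts of the 2 coactivators behaved differently. Yap1 (NM_001171147) had levels of 3.74, 3.78 and 3.73 on high-fat replicates 1 to 3, against 3.76, 3.76 and 3.82 on control replicates 1 to 3. The diets overlapped, and the difference was -0.03 (SE 0.11). Its spread was small in both diets, at 3.75 ± 0.03 and 3.78 ± 0.03 in high-fat and control glands (SD, n = 3 each).

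Wwtr1 (NM_133784), the gene for TAZ, had levels of 1.28, 1.23 and 1.11 in high-fat glands, against 1.29, 0.67 and 0.71 in control glands. Control replicate 1 was as high as any high-fat gland, and the 2 low values were the control arrays of slide 3. The difference over all 6 arrays was 0.32 (SE 0.19). Within slide 2, where both diets were measured, it was -0.12 (2 high-fat mice, 1 control mouse), and the pooled difference was 0.52 without control replicate 1 and 0.21 without control replicate 2. The part of the slide in the pooled value was not tested further.

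Among the TEAD factors, which bind DNA and recruit YAP or TAZ, 2 had higher and 2 lower values. With normexp and the 75th percentile all 4 lay below the median of all genes. With normexp and quantile normalization the differences were 0.26 (Tead1), 0.23 (Tead2), -0.46 (Tead3) and -0.11 (Tead4). The diets overlapped in all 4 on the probe used for the gene. Tead1 (NM_001166584) had levels of 2.66, 2.48 and 2.56 in high-fat glands, against 2.51, 2.19 and 2.25 in control glands. Control replicate 1 lay among the high-fat values and the slide 3 controls below them, as for Wwtr1. The difference was 0.25 (SE 0.14), and 0.01 within slide 2. Of the other Tead1 probes, one differed by 0.03. The second differed by 0.47, with levels of -4.31, -3.36 and -4.23 in high-fat glands, against -4.45, -4.47 and -4.37 in control glands. The diets did not overlap on this probe, though high-fat replicate 2 alone stood well above the rest.

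Tead2 (NM_011565) had levels of 3.60, 3.78 and 3.33 in high-fat glands, against 3.19, 3.44 and 3.38 in control glands. High-fat replicates 1 and 2 were above all control glands and high-fat replicate 3 was within their range. The difference was 0.23 (SE 0.16), and a second probe of the same transcript gave 0.28. Within slide 2 the difference was 0.37, and it was 0.13 without high-fat replicate 2 and 0.35 without high-fat replicate 3.

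Tead3 (NM_001204156) ran the other way. Its levels were -2.56, -2.66 and -1.81 in high-fat glands, against -2.23, -1.64 and -1.43 in control glands. High-fat replicates 1 and 2 were the lowest, while high-fat replicate 3 lay inside the control range. The difference was -0.57 (SE 0.30). It was -0.84 with high-fat replicate 3 left out, and 0.00 within slide 2. Fibroblast marker levels, averaged over 8 genes, were 2.93, 2.95 and 4.08 on the same high-fat arrays, against 4.04, 4.41 and 4.65 on the control arrays. Of the 8 markers, 7 had lower values on high-fat and all 8 were well above background on every array. Their part in the Tead3 values was not tested. In bulk RNA, fewer cells of a type and less RNA per cell cannot be told apart.

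Tead4 (NM_011567) had levels of -1.06, -1.0 and -1.57 in high-fat glands, against -0.95, -1.17 and -1.2 in control glands. High-fat replicate 3 had the lowest value of all. The difference was -0.10 (SE 0.19), 0.08 without that array and -0.33 within slide 2.

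**Figure D2:**
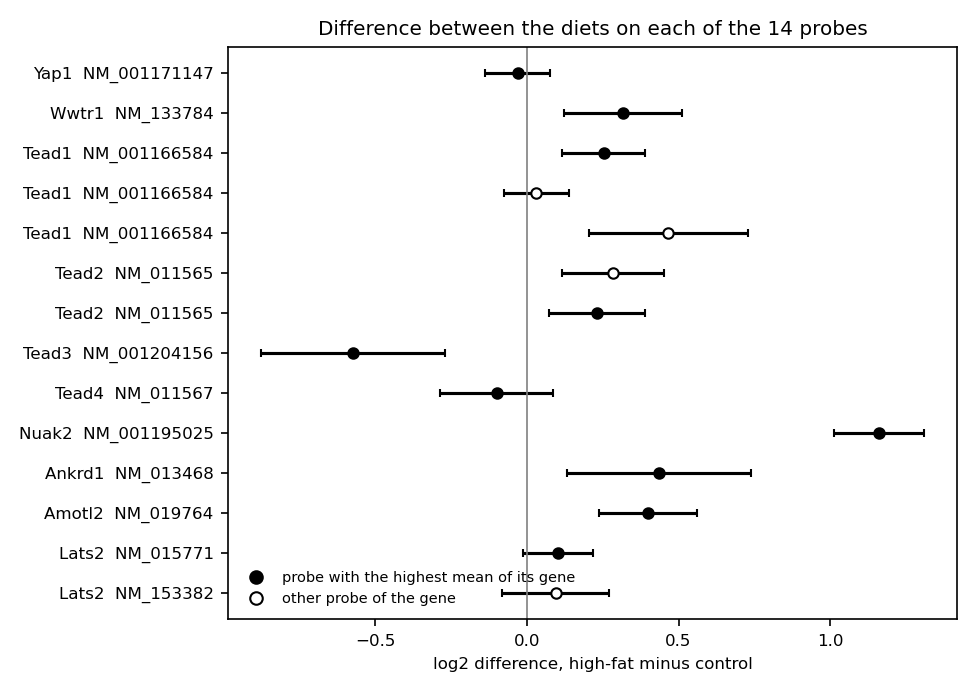
Log2 difference, high-fat minus control, on each of the 14 probes, with limma's standard error from a fit over all probes. Filled points are the probe used for the gene and open points its other probes. Both Tead2 probes and both Lats2 probes lie close together, while the 3 Tead1 probes range from 0.03 to 0.47.

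All 4 target genes had higher mean values after the high-fat diet. Lats2 lay -0.26 from the median of all genes with normexp and the 75th percentile, but 0.08 with normexp and quantile normalization. The 4 differences varied in size and in which arrays carried them. Nuak2 (NM_001195025) encodes an AMPK-related kinase known to be induced by YAP and to act back on it in human cancer cells. Its processed signals were 1769, 1322 and 1075 intensity units in high-fat glands, against 692, 460 and 457 in control glands. As levels these are -0.16, -0.31 and -0.57 in high-fat glands, against -1.40, -1.53 and -1.59 in control glands. Every high-fat gland was above every control gland, and high-fat replicate 3 was the nearest to them. The means were -0.35 ± 0.21 in high-fat and -1.51 ± 0.10 in control glands (SD, n = 3 each), a difference of 1.16 (SE 0.15) or 2.24-fold. Within slide 2 the difference was 0.96, and leaving out any 1 array gave 1.07 to 1.27.

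Basal and myoepithelial markers had higher values on the same arrays. Their mean level over 12 genes was 2.64 to 2.76 in high-fat glands, against 1.74 to 2.09 in control glands. All 12 had higher values after the high-fat diet, 10 of them with no overlap between diets, where 8.47% of all genes were higher without overlap. Every marker of the list, Krt5 and Krt14 included, was well above background on all 6 arrays. The part of these cells in the Nuak2 values was not tested.

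Ankrd1 (NM_013468) encodes an ankyrin repeat protein of heart and skeletal muscle that is also a standard YAP target. It had levels of 3.49, 3.98 and 2.91 in high-fat glands, against 3.40, 2.83 and 2.85 in control glands. High-fat replicate 2 was the highest, and high-fat replicate 3 and control replicate 1 overlapped the other diet. The difference of 0.44 (SE 0.31) was 0.18 when high-fat replicate 2 was left out and 0.71 when replicate 3 was, and it was 0.05 within slide 2. The mean level over 10 skeletal muscle markers ran opposite, at -3.04 to -2.82 in high-fat glands, against -2.20 to -1.74 in control glands. Myl1 (-3.16), Tnnc2 (-2.40) and Tnnt3 (-2.20) differed most. Acta1 (0.01) and Ckm (-0.44) overlapped between diets, and 4 markers, Acta1 among them, differed by 0.01 to 0.24. Of the 10, 6 had lower values on high-fat, 5 of them with no overlap, where 8.75% of all genes were lower without overlap, and all were well above background on every array. Their part in the Ankrd1 values was not tested.

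Amotl2 (NM_019764) encodes an angiomotin-like protein that binds YAP and holds it in the cytoplasm, and it is induced by YAP in turn. It had levels of 1.41, 1.49 and 1.06 in high-fat glands, against 0.84, 1.09 and 0.84 in control glands. High-fat replicates 1 and 2 were above all control glands, and high-fat replicate 3 lay just under control replicate 2. The difference was 0.40 (SE 0.16), or 1.32-fold, and 0.44 within slide 2. Leaving out any 1 array gave 0.31 to 0.53.

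Lats2 encodes the kinase that inhibits YAP and TAZ and is itself one of their targets. Its brighter probe (NM_015771) had levels of 1.13, 1.05 and 1.03 in high-fat glands, against 1.03, 0.86 and 1.01 in control glands. The diets did not overlap on that probe, but the gap between high-fat replicate 3 and control replicate 1 was smaller than the second decimal. The difference was 0.10 (SE 0.11). It was 0.01 within slide 2 and 0.05 without control replicate 2. A probe of another transcript (NM_153382) gave 0.09 with overlapping diets. On the probe used for each gene, Nuak2 and Lats2 were the 2 of the 10 genes whose diets did not overlap, beside 17.2% of all genes tested.

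**Figure D3:**
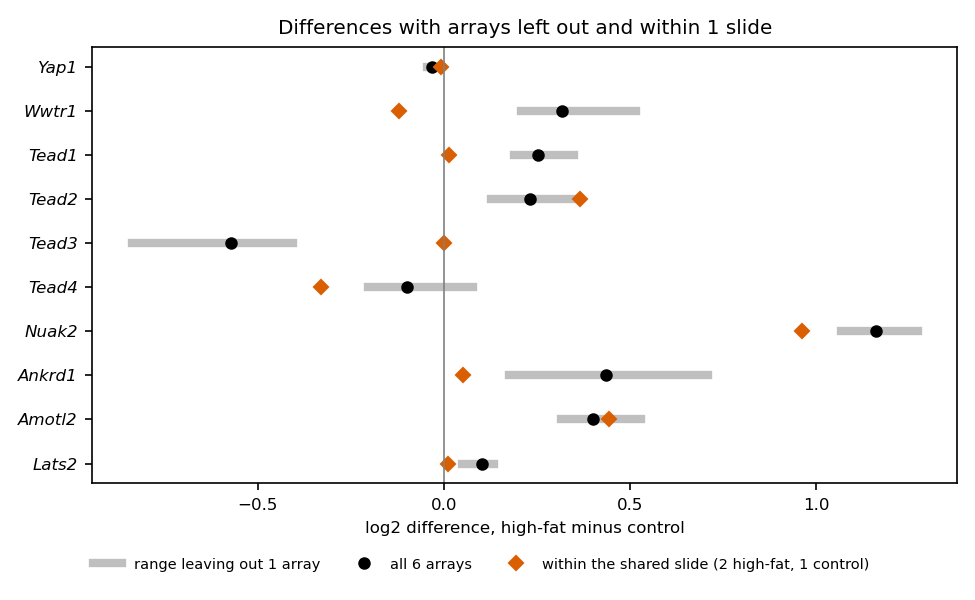
Log2 difference, high-fat minus control, of each gene over all 6 arrays (black), its range when each array is left out in turn (grey), and its value within the slide that held both diets (orange). Within the slide Nuak2, Amotl2 and Tead2 are at 0.96, 0.44 and 0.37, while Wwtr1, Tead1, Tead3 and Ankrd1 lie between -0.12 and 0.05 there.

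TEAD factors recognise a core motif, read GGAATG on one strand and CATTCC on the other. RefSeq promoter windows (GRCm38.p6, 250 bases before to 50 after a start) were at hand for 7 of the 10 genes, in 11 windows. No window was at hand for Nuak2, Tead1 or Tead4, so the motif was not looked for there. Of the 7 genes, 6 held the motif in at least 1 window: Yap1, Wwtr1, Tead3, Ankrd1, Amotl2 and Lats2. It was absent from the Tead2 window. Among all genes with a RefSeq promoter window 16.6% held it, and 14.7% of all windows did, against 8 of the 11 windows here, where the 2 Wwtr1 windows share a single site. Of the further YAP and TAZ targets described below, 5 of the 15 with a window held it. For kinases and upstream regulators the count was 6 of 20, and for cofactors and competitors of TEAD 4 of 7. A match shows the letters and not binding, and several starts per gene give more windows to search. The bases before the start of Ankrd1 and Amotl2, the targets with a match there, are shown to place the motif, in capitals, in its promoter.
Ankrd1, chr19:36119845-36120094, minus strand: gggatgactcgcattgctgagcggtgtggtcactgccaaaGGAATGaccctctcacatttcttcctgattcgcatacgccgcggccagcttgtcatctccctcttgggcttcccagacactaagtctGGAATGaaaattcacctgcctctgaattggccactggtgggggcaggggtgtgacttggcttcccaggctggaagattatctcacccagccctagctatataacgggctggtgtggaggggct
Amotl2, chr9:102717554-102717803, plus strand: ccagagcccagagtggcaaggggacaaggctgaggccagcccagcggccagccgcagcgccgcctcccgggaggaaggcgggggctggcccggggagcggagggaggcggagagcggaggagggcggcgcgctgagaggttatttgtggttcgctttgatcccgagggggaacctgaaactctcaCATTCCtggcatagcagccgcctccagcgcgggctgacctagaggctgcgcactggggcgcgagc

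The 2 Ankrd1 matches begin 210 and 123 bases before the start and the Amotl2 match 65 bases before it. In the other genes 1 match, or the Tead3 pair, is shown with 12 bases on either side of the first copy, to compare what surrounds the core. The coactivator genes hold it 141 bases (Yap1) and 136 bases (Wwtr1, from the more upstream start) before a start, and Lats2 at base 5 after one. In Tead3 a pair of copies stands side by side 123 and 114 bases before a start, and 2 further matches lie 182 bases before another start and at base 3 after one.
Yap1, chr9:8004720-8004749, minus strand: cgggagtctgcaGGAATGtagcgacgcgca
Wwtr1, chr3:57576029-57576058, minus strand: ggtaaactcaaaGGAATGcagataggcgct
Lats2, chr14:57746102-57746131, minus strand: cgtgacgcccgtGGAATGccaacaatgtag
Tead3, chr17:28350706-28350735, minus strand: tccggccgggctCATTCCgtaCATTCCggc

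Further YAP and TAZ targets had a median difference of 0.14, with 16 of 24 tested genes above 0. They lay -0.14 from the median of all genes with normexp and the 75th percentile, but 0.13 with normexp and quantile normalization. With slide as a fixed block the median was 0.06, with 14 above 0. By unadjusted p, 5 were under 0.05 with higher values and 0 with lower ones, beside 5.88% and 7.46% of all genes, and 0 passed when adjusted over all genes. Ccn2, a matricellular protein and the most used YAP readout beside Ccn1, had 5.83, 5.22 and 6.0 in high-fat glands, against 4.54, 5.11 and 4.71 in control glands. Its difference was 0.90 (SE 0.25), the diets did not overlap, and high-fat replicate 2 was only slightly above control replicate 2.

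Tgfb2, a transforming growth factor, differed by 1.62 (SE 0.32), with levels of 0.67, 0.02 and -0.31 in high-fat glands, against -1.50, -1.05 and -1.93 in control glands. Fjx1, a secreted kinase-like protein, differed by 0.60 (SE 0.11) and Crim1, a membrane protein that binds bone morphogenetic proteins, by 0.61 (SE 0.22). Fjx1 kept the diets apart and Crim1 did not. Ccn1 differed little, at 4.87, 4.98 and 4.84 in high-fat glands, against 4.64, 4.82 and 4.76 in control glands, a difference of 0.16 (SE 0.12) with the diets just apart. Differences of the 24 genes ran from -1.08 to 1.62.

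The kinases and upstream regulators of the pathway went both ways. Of 24 tested genes, 3 with higher and 3 with lower values had an unadjusted p under 0.05, beside 5.88% and 7.46% of all genes, and 0 passed when adjusted over all genes. The median difference was 0.16, but 0.07 with slide as a fixed block. It lay -0.08 from all genes with normexp and the 75th percentile, and 0.13 with normexp and quantile normalization. The lowest was Dchs1, an atypical cadherin of planar polarity, with levels of -1.84, -1.03 and -1.16 in high-fat glands, against 0.31, -0.44 and 0.67 in control glands, a difference of -1.52 (SE 0.34). Stk3, the kinase MST2, differed by -0.40 (SE 0.16), with no overlap between the diets. Mob1a, an activator of LATS kinases, differed by 0.50 (SE 0.15), also without overlap. Frmd6, a scaffold of the pathway, differed by 1.00 (SE 0.38) and Ajuba, a LIM protein that restrains LATS, by 0.68 (SE 0.26). In both, high-fat replicate 3 lay within the control range. Lats1, the sister kinase of Lats2, differed by 0.28 (SE 0.13).

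Of 9 cofactors and competitors for TEAD, 1 with higher and 0 with lower values had an unadjusted p under 0.05, beside 5.88% and 7.46% of all genes. The median difference of 0.05 was 0.16 with slide as a fixed block and -0.01 without high-fat replicate 2. It was 0.39 with normexp and the 75th percentile, or 0.13 from all genes, and 0.06 with normexp and quantile normalization. The gene under 0.05 was Vgll4, which competes with YAP for TEAD binding, with levels of -1.2, -1.21 and -1.69 in high-fat glands, against -1.90, -2.09 and -2.24 in control glands. The difference was 0.71 (SE 0.18), with the diets apart. Runx1, a partner of YAP and TAZ, differed by 0.51 (SE 0.21) and Vgll3 by 0.38 (SE 0.20). Vgll2 was level on 5 arrays, from -2.85 to -2.13, but stood at -4.94 on high-fat replicate 3, which carried its difference of -1.0 (SE 0.68). Vgll1 was well above background on 1 of 3 high-fat and 3 of 3 control arrays, and differed by -0.36 (SE 0.29).

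**Figure D4:**
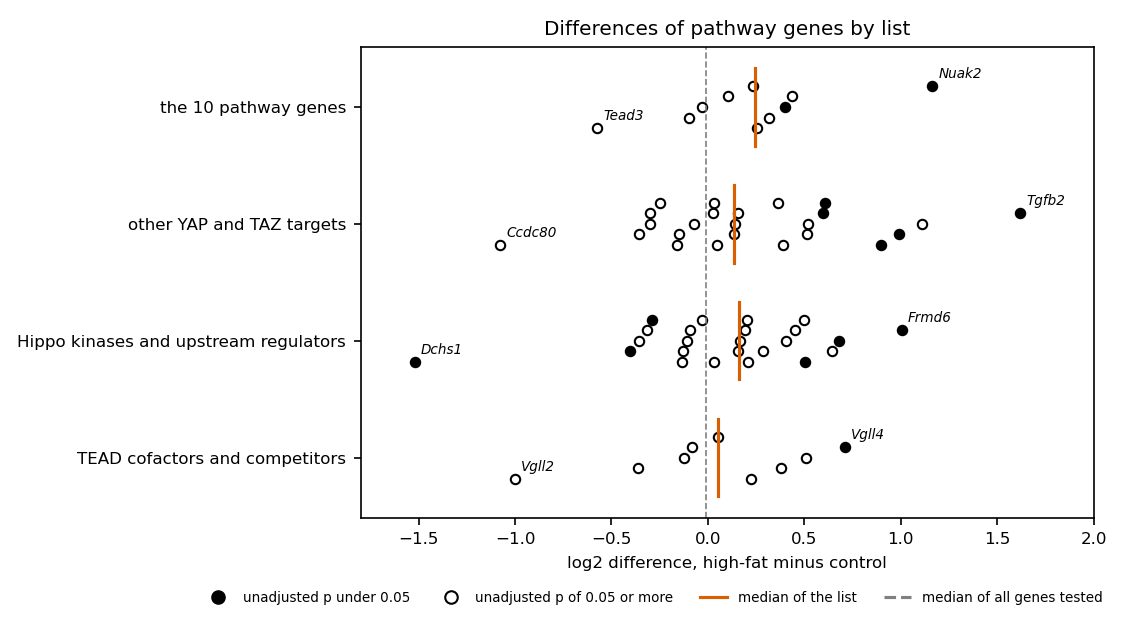
Log2 difference, high-fat minus control, of each tested gene in the 10 pathway genes and in the other pathway lists. Filled points had an unadjusted p under 0.05, orange lines are list medians (0.24, 0.14, 0.16 and 0.05 from top to bottom) and the dashed line is the median of all genes tested. Ptpn14 is in both the second and the third list.

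Seen across arrays, the 10 genes fell into different patterns. Nuak2 was higher on all 3 high-fat than on all 3 control arrays, as was the mean of the basal and myoepithelial markers. Tead2 and Amotl2 were highest on high-fat replicates 1 and 2 and lower on the other 4 arrays. Wwtr1 and Tead1 were low on control replicates 2 and 3, and Yap1 and Lats2 varied little. Luminal marker levels, averaged over 13 genes, were 1.16, 1.43 and 0.33 in high-fat glands, against 0.73, 0.08 and 0.21 in control glands. They were highest on the 2 arrays where Tead2 and Amotl2 were highest. On control replicate 1 the luminal mean was above those of the other controls, and Tead2 (3.19) and Amotl2 (0.84) were at their lowest. Ankrd1 ordered the 6 arrays as the luminal mean did, and how many other genes did so was not counted. Of the 13 markers, 12 had higher values on high-fat, and all but Pgr (5 of 6 arrays) were well above background on every array. Their part in these values was not tested. The remaining marker lists had median differences of 0.24 for endothelium (8 genes), 0.31 for pericytes (6), 0.14 for white adipocytes (8), -0.07 for macrophages (6) and 0.01 for keratinocytes (6). Macrophage markers were dim, with mean levels of -4.24 to -3.91 in high-fat and -4.27 to -3.64 in control glands. The listed markers Cd163, Krt1, Myh2 and Myh4 were on the array but did not pass the filter, and Cd68 and Flg had no named probe.

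**Figure D5:**
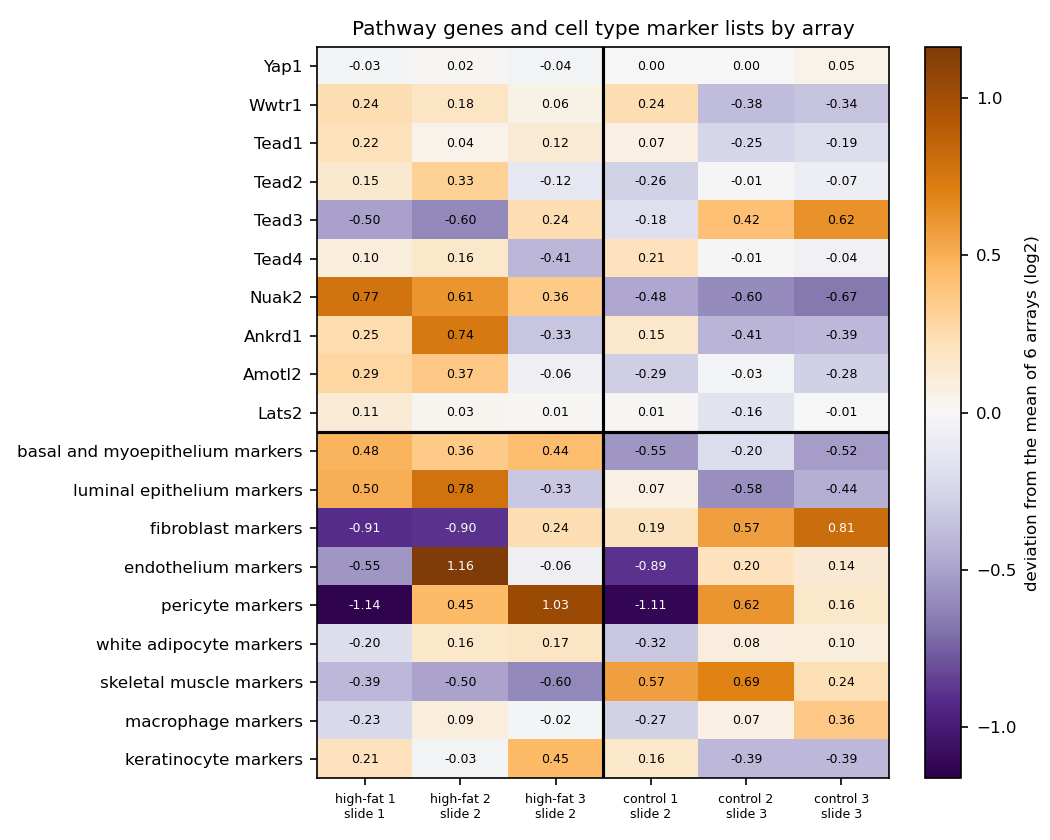
Deviation of each array from the mean of 6 arrays (log2) for the 10 genes (top) and for the mean level of each cell type marker list (bottom), with the slide under each array. Nuak2 and the basal and myoepithelial markers are above their mean on all 3 high-fat arrays and below it on all 3 control arrays.

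The genes whose levels were most like those of Nuak2 over the 6 arrays, among 15585 named genes, were Lsm14a (Pearson r = 0.999), an RNA-binding protein of processing bodies, Ston2 (0.990), an endocytic adaptor, and Il1rn (0.988), the interleukin-1 receptor antagonist. For Wwtr1 they were Smad1 (0.999), a mediator of bone morphogenetic protein signalling, Sptlc2 (0.998), a sphingolipid enzyme, and Nab1, a corepressor. For Yap1 they were Spire2 (0.999), an actin nucleator, Icmt (0.985), a methyltransferase of prenylated proteins, and Patl1 (0.982), a decapping factor. With so few arrays high values are common: 447 genes had an r above 0.9 with Nuak2, 894 with Wwtr1 and 102 with Yap1. These values describe the 6 arrays, whose scaling, slides and cell makeup all genes share.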

How the data were processed

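RNA of 6 mice (3 per diet), labelled as mammary gland and described as mammary epithelial cells, was hybridised to single-colour Agilent arrays. The arrays were read with Agilent Feature Extraction 11.0.1.1, per the submitters' processing notes. The deposited scanner files hold intensity on a linear scale, background-subtracted and detrended, for 44397 spots, with 0 or 1 flags as other values. The deposited table of values holds intensity too: for 99.9% of probes the ratio to the scanner's processed signal over the 75th percentile was constant within 1%. It was neither logged nor centred, with medians of 0.134, 0.134 and 0.137 in the high-fat columns and 0.134, 0.140 and 0.134 in the control columns.

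Control and outlier spots were left out and a probe's spots averaged. Of 39429 probes, 111 lacked a usable spot somewhere and were dropped. Probes were named through RefSeq accessions (27346 with 1 symbol). The filter kept 28689 probes that were well above background in 3 or more arrays. Each gene took its probe of highest mean level. The test of high-fat against control used limma 3.58.1 (R 4.3.3, two-sided, Benjamini-Hochberg over all 23460 genes). The fit was tested on simulated data with independent noise and no slide effects, unlike arrays that share slides. Of true log2 changes of 1, 2 and 3 it called 37.3%, 73.7% and 87.9%, and 4.61% of its calls were false.

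The members and all lists were chosen with earlier results of these data known. All 10 genes are named; of each other pathway list the 5 with the smallest p, with Ccn1 and Ccn2, apart from 1 gene not reported here; Lats1 was added after its values were seen. The 3 most alike genes left out predicted genes. Replicate numbers were not used to pair the arrays in the main fit. Alternatives covered scaling, background, filter, probes, the deposited table, variance settings, array weights, slide, replicate block and leaving out each array.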

Additional observations from a re-analysis of the deposited data

How the results depend on the processing

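The count of 4 genes past an adjusted p of 0.05 over all genes was 0 with quantile normalization, with normexp and the 75th percentile, without a filter, with slide as a fixed block and with the replicate block. It was 2 with median scaling, 7 with normexp and quantile normalization, 7 with probes well above background on all 6 arrays, 3129 at an unadjusted p, and 0 to 37 with 1 array left out (37 without high-fat replicate 3). Of the 10 genes 0 passed in any of these fits at an adjusted p. At an unadjusted p 2 passed (Nuak2 and Amotl2), but 1 with normexp and the 75th percentile, without a filter and with slide as a fixed block, 3 with the replicate block, and 1 to 4 with 1 array left out (4 without high-fat replicate 3 or control replicate 1). With array weights 5408 genes passed, or 23.1%, 5 of the 10 among them (Nuak2, Amotl2, Ankrd1 and Wwtr1 higher, Tead3 lower). That fit weighted high-fat replicate 3 and control replicate 1 by 0.418 and 0.339 and control replicate 3 by 4.69. The median of the 10 was 0.012 with slide as a fixed block, where all genes had 0.03. That fit gives the differences within slide 2. With normexp and quantile normalization the median of the 10 was 0.24, where all genes had -0.0016. The normexp fit scaled to the 75th percentile moved the median of all genes to 0.27. There Nuak2 was 1.09 and the TEAD cofactor list 0.39, and Wwtr1 (0.25) was -0.02 from all genes. Tead4 was positive in that fit (0.07), with array weights (0.08) and without high-fat replicate 3. Wwtr1 was negative with slide as a fixed block. The other 8 genes had the same direction in every setting, apart from Tead3 at 0.00 within slide 2. Replicate numbers gave correlations of deviations from group means of 0.327, -0.144 and 0.25 for pairs 1 to 3. With 3 arrays per diet, which also differ in slide, these values cannot show whether the numbers pair the arrays. Each number holds 1 array per diet, so the replicate block could not change a difference. The causes of the changes between settings were not tested.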
